A study of Mus musculus with 4 samples.

Results

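The 10 genes of the fibroblast-type extracellular matrix and its cells were followed in *Terc*-null mouse embryonic stem cells (mESCs): the fibrillar collagen genes *Col1a1*, *Col1a2*, *Col3a1*, *Col5a1* and *Col5a2*, the matrix genes *Fn1*, *Fbn1* and *Postn*, and the mesenchymal cell genes *Thy1* and *Vim*. They were chosen by name as a group of known function, with earlier results of these data known. Each symbol matched exactly 1 of the 53379 genes in the files, so that 10 of 53379 genes are described here. All libraries came from DKO741, a *Terc*-/- line made from E14 mESCs by targeting both alleles with the construct TR-10, with Cre adenovirus used to remove the *neo* gene after the first allele. The pre-ALT group was harvested at PD100 and the post-ALT group at PD800, with 2 libraries in each, where PD is the population doubling that the titles give (the treatment label speaks of passages) and ALT is alternative lengthening of telomeres, the maintenance of telomeres without telomerase. Both groups lack *Terc*, both come from the 1 line, and no *Terc*+/+ library or time point between them was used here, so time in culture and the passage through telomere crisis cannot be told apart. Stocks were kept on mouse embryonic fibroblast (MEF) feeders, while the cells used for extraction are described as free of feeders. The libraries of a group are described as biological duplicates, with no word on whether they came from separate cultures, and the p-values measure only the spread between these duplicates of 1 line.

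Fibrillar collagens are made as long precursor chains that fold by threes into a rigid triple helix, are secreted, lose their end pieces and pack side by side into fibrils. Type I collagen is built from the products of *Col1a1* and *Col1a2*, type III collagen from that of *Col3a1* alone, and type V collagen, a minor partner that helps to start fibrils and limit their width, from those of *Col5a1* and *Col5a2*. Fibronectin (*Fn1*) forms a network that cells pull on through integrins and on which collagen is laid down, fibrillin-1 (*Fbn1*) forms microfibrils that also hold latent TGF-beta, and periostin (*Postn*) is a secreted protein that binds collagen and fibronectin. *Thy1* codes for a surface glycoprotein (CD90) carried by fibroblasts and lymphoid cells, and *Vim* for vimentin, the intermediate filament protein of mesenchymal cells. Fibroblasts and other connective tissue cells are the textbook source of types I, III and V collagen, while fibronectin and vimentin are made by many cell types, mESCs among them.

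Each library held 32454121 to 38492149 expected counts, the estimated numbers of read pairs per gene, of which the 10 genes had between 27 (*Col3a1*) and 14101 (*Fn1*) in a library. All 10 had at least 10 counts in every library, and all passed the filter on low counts with which 19148 genes were tested. Levels are given in CPM, counts scaled to library size with TMM factors, which compare libraries, and in TPM, also scaled for gene length, where genes are compared with each other. A level of 3 counts, taken as the limit of detection for counting error only, was 0.0743 to 0.0934 CPM. A gene was called changed at an adjusted p under 0.01 with a fold change over 2 (edgeR's quasi-likelihood test, Benjamini-Hochberg adjustment over all tested genes). An exact permutation test (two-sided) of 1 gene in groups of 2 has a smallest possible p of 0.333, and the adjusted p values come from models (edgeR, and limma where named) that share information on the spread across genes. The targeted gene *Terc* had 1 count in PD100 replicate 1 and 0 in the other 3 libraries. The correlation of log2 CPM across genes, which are not independent replicates, was 0.984 between the PD100 libraries, 0.992 between the PD800 libraries and 0.935 to 0.944 between the groups.

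All 5 fibrillar collagen genes and *Thy1* fell from PD100 to PD800, between 2.44-fold for *Col5a1* and 8.37-fold for *Col1a1*. *Fn1*, *Fbn1* and *Postn* had lower levels in both PD800 libraries than in both PD100 libraries, by 1.37 to 1.74-fold, and did not pass both thresholds. *Vim* alone lay higher in PD800, by 1.37-fold, which also did not pass the fold threshold. Thus 6 of the 10 genes (60%) were called lower and 0 higher, where 8.81% of all tested genes were called lower and 6.28% higher. As the 10 genes were chosen with earlier results of these data known, this contrast is a description only. With limma on log2(TPM + 1), 3 of the 10 were called lower (*Col1a1*, *Col1a2* and *Col5a2*) and 0 higher, where 920 and 297 of 19148 tested genes were. By edgeR's adjusted p alone, 7 were lower and 1 higher, where 15.4% and 13.1% of all tested genes were. The groups did not overlap for any of the 10, with 9 lower and 1 higher in PD800, but with 2 libraries a group this was common, at 36.3% of all tested genes for lower and 37.4% for higher. The median log2 fold change of the 10 genes was -1.47, against 0.01 for all tested genes. In bulk RNA, fewer cells of a type that makes these transcripts and less of the transcripts in each cell cannot be told apart.

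**Figure D1:**
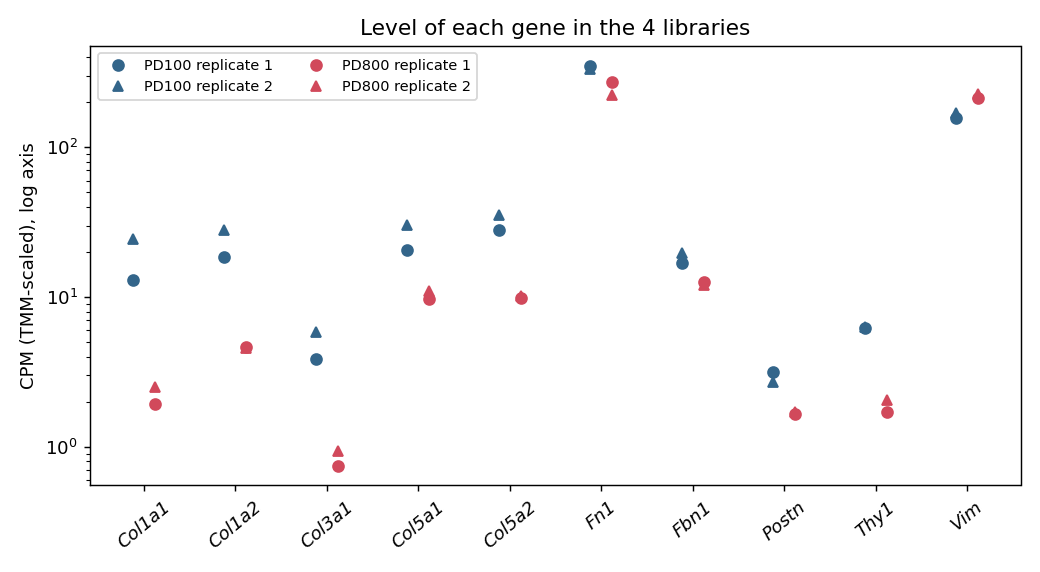
Level of each of the 10 genes in each library, as CPM on a log axis, with circles for replicate 1 and triangles for replicate 2 of PD100 (blue) and PD800 (red). The red points lie under the blue ones for 9 genes, farthest for *Col1a1*, and above them for *Vim* only. The blue circle lies under the blue triangle for each of the 5 collagen genes.

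In edgeR's fit, though not with limma on log2(TPM + 1), the largest fall of the 10 was that of *Col1a1* (ENSMUSG00000001506.10). This gene codes for the alpha 1 chain of type I collagen and lies on the plus strand of chromosome 11 from 94936224 to 94953042 (GRCm38, GENCODE M21). Its level was 13.0 and 24.4 CPM in PD100 replicates 1 and 2, and 1.95 and 2.52 CPM in PD800 replicates 1 and 2. The PD100 libraries were both far above the PD800 libraries, although the ratio of replicate 2 to replicate 1 was farther from 1 than for any other of the 10 genes. The group means of 18.7 ± 8.05 and 2.23 ± 0.405 CPM (SD, n = 2) gave -3.07 ± 0.34 (SE) as the log2 fold change, with a 95% interval of -3.91 to -2.23, and edgeR's quasi-likelihood test gave an adjusted p of 0.00101. *Col1a2* (ENSMUSG00000029661.16; chromosome 6, plus strand, 4504814 to 4541544), the gene of the alpha 2 chain, had 18.6 and 28.0 CPM in PD100 and 4.65 and 4.57 CPM in PD800. The PD800 libraries were nearly equal and both low. This was a 5.03-fold fall, with a log2 fold change of -2.33 ± 0.21 (SE; 95% interval -2.85 to -1.81; edgeR, adjusted p = 0.000486).

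*Col3a1* (ENSMUSG00000026043.18; chromosome 1, plus strand, 45311538 to 45349706), which alone codes for type III collagen, was the least counted of the collagens, with 155 and 196 expected counts in PD100 and 27 and 30 in PD800. These were 3.84 and 5.87 CPM in PD100, and 0.751 and 0.934 CPM in PD800. All values lay above the limit of detection, and the higher of the PD800 libraries was well below the lower of the PD100 libraries. The fall was 5.74-fold, with a log2 fold change of -2.52 ± 0.29 (SE; 95% interval -3.23 to -1.81; edgeR, adjusted p = 0.00110). The call was lost with limma on log2(TPM + 1), where the log2 difference was -0.69 with an adjusted p of 0.0114.

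Of the type V genes, *Col5a2* (ENSMUSG00000026042.16; chromosome 1, minus strand, 45374321 to 45503282) had 27.9 and 35.6 CPM in PD100 against 9.90 and 10.2 CPM in PD800. *Col5a1* (ENSMUSG00000026837.15; chromosome 2, plus strand, 27886425 to 28039514) had 20.8 and 30.1 CPM in PD100 against 9.77 and 11.0 CPM in PD800. For both, the PD800 libraries were close together and below both PD100 libraries. *Col5a2* fell 3.15-fold (log2 fold change -1.66 ± 0.14 SE, 95% interval -1.99 to -1.32; edgeR, adjusted p = 0.000338) and *Col5a1* 2.44-fold (-1.29 ± 0.19 SE, 95% interval -1.75 to -0.83; edgeR, adjusted p = 0.00283). The interval of *Col5a1* reaches above -1, which marks a 2-fold fall, and a test of whether its fold change exceeds 2 gave an adjusted p of 0.208 (edgeR's glmTreat).

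Ratios between collagen chains were taken within each library, as a description with no test. Within a library, the CPM ratio of *Col1a1* to *Col1a2* was 0.701 and 0.874 in PD100 and 0.419 and 0.551 in PD800, lower in both PD800 libraries than in both PD100 libraries. For type V the ratio of *Col5a1* to *Col5a2* was 0.744 and 0.848 in PD100 and 0.986 and 1.08 in PD800, higher in both PD800 libraries. The ratio of the type I pair to the type V pair was 0.650 and 0.797 in PD100 and 0.335 and 0.334 in PD800, where the PD800 libraries were almost alike. The ratio of *Col3a1* to *Col5a2*, its neighbour on chromosome 1, was 0.138 and 0.165 in PD100 and 0.0758 and 0.0915 in PD800. None of the 4 ratios overlapped between the groups, which in groups of 2 was also the case for the levels of 36.3% (lower) and 37.4% (higher) of all tested genes. As ratios of counts not divided by length they do not give the number of chains.

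**Figure D2:**
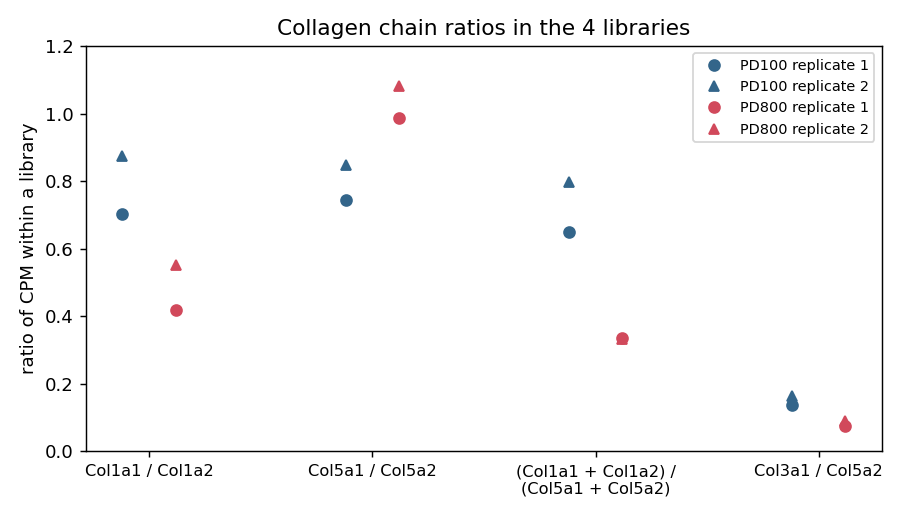
Ratios of CPM between collagen genes within each library, on a linear axis from 0, with circles for replicate 1 and triangles for replicate 2 of PD100 (blue) and PD800 (red). The type I to type V ratio was 0.650 and 0.797 in PD100 and 0.335 and 0.334 in PD800, and the *Col5a1* to *Col5a2* ratio is the only one of the 4 that lies higher in PD800.

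The collagens also differed between the PD100 libraries, and the share of all tested genes that differed as much was not counted. All 5 were higher in PD100 replicate 2 than in replicate 1, by 1.87 times for *Col1a1*, 1.53 for *Col3a1*, 1.50 for *Col1a2*, 1.45 for *Col5a1* and 1.27 for *Col5a2*. The other 5 genes differed less between the PD100 libraries and in both directions: replicate 2 had 1.17 times the *Fbn1* level of replicate 1, 1.08 times that of *Vim*, 1.02 times that of *Thy1*, 0.954 times that of *Fn1* and 0.867 times that of *Postn*. The sum over the 5 collagens was 84.1 and 124 CPM in PD100 and 27.0 and 29.3 CPM in PD800. The same 6 genes were called lower whichever library was left out. Over these 4 fits the log2 fold change of *Col1a1* lay between -3.45 and -2.57, and that of *Col5a1* between -1.53 and -1.02. In such a fit the lone library of a group is assumed to vary like those of the other group.

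*Fn1* (ENSMUSG00000026193.15; chromosome 1, minus strand, 71585520 to 71653200) had the highest counts of the matrix genes, at 349 and 333 CPM in PD100 and 273 and 225 CPM in PD800. The PD800 libraries were both lower, and differed from each other by more than the PD100 libraries did. The log2 fold change was -0.46 ± 0.11 (SE; 95% interval -0.73 to -0.18), a 1.37-fold difference with an adjusted p of 0.0185 in edgeR's test, which did not pass. *Fbn1* (ENSMUSG00000027204.13; chromosome 2, minus strand, 125300594 to 125507993) had 16.8 and 19.6 CPM in PD100 and 12.5 and 12.1 CPM in PD800. Its difference was small beside those of the collagens but larger than the spread between replicates, at 1.48-fold with a log2 fold change of -0.56 ± 0.11 (SE; 95% interval -0.82 to -0.30; edgeR, adjusted p = 0.00759). It passed the adjusted p and not the fold threshold. *Postn* (ENSMUSG00000027750.16; chromosome 3, plus strand, 54361109 to 54391037) was low throughout, at 3.15 and 2.73 CPM in PD100 and 1.67 and 1.71 CPM in PD800. The difference was 1.74-fold (log2 fold change -0.80 ± 0.19 SE, 95% interval -1.27 to -0.33; edgeR, adjusted p = 0.0180), and it was not called.

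*Thy1* (ENSMUSG00000032011.5; chromosome 9, plus strand, 44043384 to 44048579) had 6.22 and 6.35 CPM in PD100 and 1.70 and 2.05 CPM in PD800. The PD100 libraries were nearly equal, unlike for the collagens, and both PD800 libraries were low. The fall was 3.35-fold, with a log2 fold change of -1.75 ± 0.17 (SE; 95% interval -2.15 to -1.34; edgeR, adjusted p = 0.000563). *Vim* (ENSMUSG00000026728.9; chromosome 2, plus strand, 13573927 to 13582826) had 156 and 168 CPM in PD100 and 215 and 228 CPM in PD800, the only gene of the 10 with both PD800 libraries on top. Its log2 fold change was 0.45 ± 0.08 (SE; 95% interval 0.25 to 0.65), 1.37-fold higher with an adjusted p of 0.00635 in edgeR's test. The direction was the same on the TPM scale, but the log2 difference there was 0.14 with an adjusted p of 0.533 (limma on log2(TPM + 1)), while the median of all genes on that scale was -0.12.

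**Figure D3:**
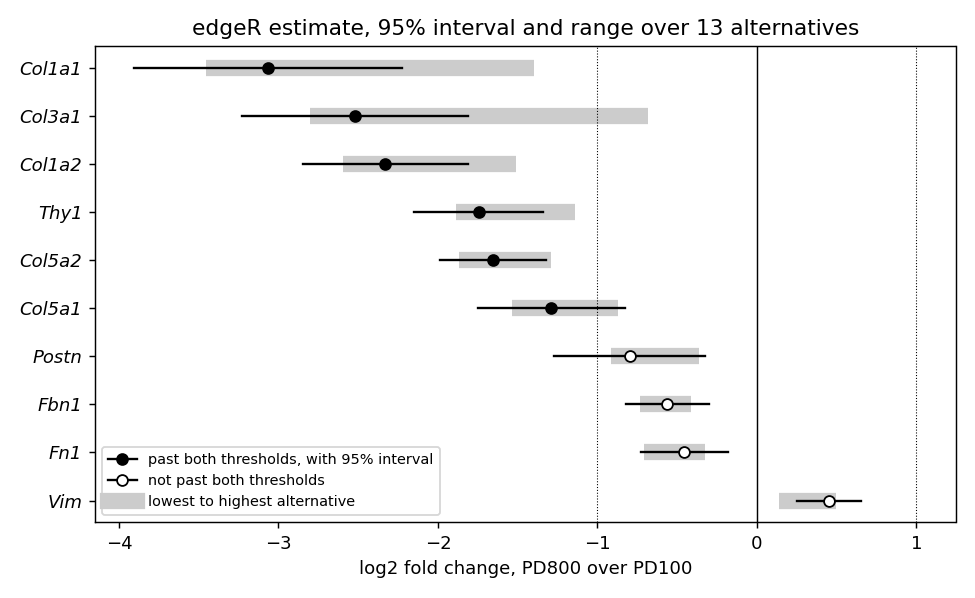
PD800 against PD100 for each of the 10 genes, as edgeR's log2 fold change (points) with its 95% interval (lines) and the range over 13 alternatives of the processing (grey bars), with filled points past both thresholds. Dotted lines mark a fold of 2, which the intervals of *Col1a1*, *Col3a1*, *Col1a2*, *Thy1* and *Col5a2* do not reach. All 9 genes left of 0 stay there over their whole grey bar, and *Vim* stays to the right.

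Per unit of length the 10 genes made a steep order of abundance. In PD100 the mean TPM was 106 for *Vim* and 59.2 for *Fn1*, then 3.94 for *Thy1*, 3.87 for *Col5a2*, 3.62 for *Col1a2*, 2.39 for *Col1a1*, 2.36 for *Col5a1*, 1.42 for *Fbn1*, 0.98 for *Col3a1* and 0.82 for *Postn*. In PD800 *Vim* at 116 and *Fn1* at 36.4 still led, and *Thy1* at 1.18, *Col5a2* at 0.99, *Col5a1* at 0.83 and *Fbn1* at 0.815 came next. *Col1a2* at 0.61, *Postn* at 0.415, *Col1a1* at 0.27 and *Col3a1* at 0.225 were last. In PD800 both type I chains thus lay under both type V chains and under *Fbn1* in mean TPM, while in PD100 they lay above *Col5a1* and *Fbn1*, *Col1a1* by less than the spread between replicates in the case of *Col5a1*. *Vim* and *Fn1* together made 88.8% and 90.1% of the summed TPM of the 10 genes in PD100 and 96.6% and 96.7% in PD800. The whole sum was 168 and 202 TPM in PD100 and 153 and 162 TPM in PD800, and the 5 collagens summed to 11.5 and 14.9 TPM in PD100 and to 2.94 and 2.91 TPM in PD800.

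The lengths behind the TPM values are estimates that differ between libraries, because RSEM weights a gene's isoforms in each library separately. The length of *Thy1* was 1720 bases in PD100 replicate 2 and 1130 to 1161 bases in the other 3 libraries, and its TPM values were 5.02 and 2.85 in PD100, where its CPM values were almost equal, and 1.11 and 1.25 in PD800. *Thy1* was not called on either TPM scale, with adjusted p of 0.0202 and 0.0149 (limma on log2(TPM + 1) and log2(TPM + 0.1)). The length of *Col3a1* lay between 2086 and 3996 bases over 7 annotated transcripts, of which the longest has 5564 bases, and that of *Fn1* between 3929 and 4982 bases over 17 transcripts, of which the longest has 8315 bases. Order by TPM between genes close to each other, such as *Thy1* and *Col5a2* in PD100, is therefore uncertain.

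The 10 genes lie on 6 chromosomes, and only *Col3a1* and *Col5a2* are near each other, on opposite strands of chromosome 1 with their 3′ ends facing across 24.6 kb. The 40 tested genes nearest to each were summarised as a description of its surroundings. Their median log2 fold change was -0.41 around *Col1a1*, -0.33 around *Col3a1*, -0.35 around *Col5a2* and -0.20 around *Fn1*, and between -0.04 and 0.14 around the other 6. Since a call needed a fold change over 2, it was nearly fixed beforehand that the fallen genes lay under these medians. Whether the surroundings had a part in their fall was not tested. Around the fallen genes, 0 (*Col5a1*) to 5 (*Col1a1* and *Col5a2*) of the 40 neighbours were called lower and 0 to 3 higher, and around the other 4 genes 3 to 5 lower and 0 to 2 higher, where 8.81% and 6.28% of all tested genes were. *Col3a1* and *Col5a2* share neighbours, so their values are not separate observations.

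RefSeq promoter windows (GRCm38.p6, 250 bases before an annotated start) were held for 6 of the 10 genes: *Col1a2*, *Col3a1*, *Col5a1*, *Fbn1*, *Postn* and *Vim*. *Postn* had a window at each of 2 starts, which makes 7 in all, and 4 of the 7 held no base in an annotated exon of these genes. Of these 4, the 3 that end within 3 bases of the GENCODE start of their gene are printed 5′ to 3′. They are those of *Col3a1* and *Col5a1*, which fell, and of *Postn*, which did not pass. Capitals mark the motifs CCAAT (bound by NF-Y), GGGCGG (the GC box, bound by Sp1) and TATAAA (bound by TBP), each sought on both strands. The windows are chr1:45311288-45311537 for *Col3a1*, chr2:27886175-27886424 for *Col5a1* and chr3:54360857-54361106 for *Postn*, all on the plus strand.
Col3a1: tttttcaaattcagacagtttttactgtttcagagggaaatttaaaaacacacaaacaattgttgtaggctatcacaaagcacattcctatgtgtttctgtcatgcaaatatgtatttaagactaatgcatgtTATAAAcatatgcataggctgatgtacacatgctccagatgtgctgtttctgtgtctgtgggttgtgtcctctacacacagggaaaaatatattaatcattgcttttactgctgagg
Col5a1: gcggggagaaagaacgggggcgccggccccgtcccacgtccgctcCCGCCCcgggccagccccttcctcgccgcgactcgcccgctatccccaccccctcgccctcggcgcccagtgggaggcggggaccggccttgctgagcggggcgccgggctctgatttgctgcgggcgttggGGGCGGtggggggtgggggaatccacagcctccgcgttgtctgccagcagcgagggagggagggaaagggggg
Postn: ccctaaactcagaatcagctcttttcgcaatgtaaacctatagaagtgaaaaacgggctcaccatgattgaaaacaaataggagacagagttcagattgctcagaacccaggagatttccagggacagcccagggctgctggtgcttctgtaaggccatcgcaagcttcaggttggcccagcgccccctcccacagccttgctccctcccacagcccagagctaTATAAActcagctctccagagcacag

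The *Col3a1* window had 35.2% G and C and 0 CpG dinucleotides, and its TATAAA lay 117 bases before the start. The *Col5a1* window had 76.4% G and C, 28 CpG dinucleotides and GGGCGG at 205 bases (minus strand) and 73 bases (plus strand) before the start. The printed *Postn* window had 52% G and C, 4 CpG dinucleotides and a TATAAA 26 bases before the start. The other *Postn* window, chr3:54359017-54359266, had 40.4% G and C, 3 CpG dinucleotides and none of the motifs sought. Over all 32851 promoter windows, the median was 52.4% G and C and 6 CpG dinucleotides, and 33.8% held CCAAT, 32.7% GGGCGG and 12.4% TATAAA. The E box CACCTG, held by 17.2% of all windows, was in none of the 6 genes' windows, and GGAATG, the core of the TEAD motif, held by 12.6%, was in that of *Col3a1* only, 168 bases before the start on the minus strand. The window of *Col1a2*, not printed, held GGGCGG at 205 and 188 bases and CCAAT at 109 bases before the start, all on the plus strand. GGGCGG was thus in the windows of both *Col1a2* and *Col5a1*. No motif sought was held by all the fallen collagen genes with a window, and a match is a description of letters and not a bound site.

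The wider matrix pathway was described by 9 lists of genes of known role, 119 names of which 110 were tested. These lists were also chosen with earlier results of these data known. In all, 46 of the 110 (41.8%) were called lower and 4 (3.64%) higher, where 8.81% and 6.28% of all tested genes were. With limma on log2(TPM + 1), 23 list genes were called lower and 2 higher, and with glmTreat 29 and 2, where 920 and 297, and 685 and 386, of all genes were. In each list, the genes named are the 3 with the highest mean TPM. Levels are mean CPM ± SD (n = 2), fold changes are those of edgeR, and adjusted p values are those of its quasi-likelihood test.

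**Figure D4:**
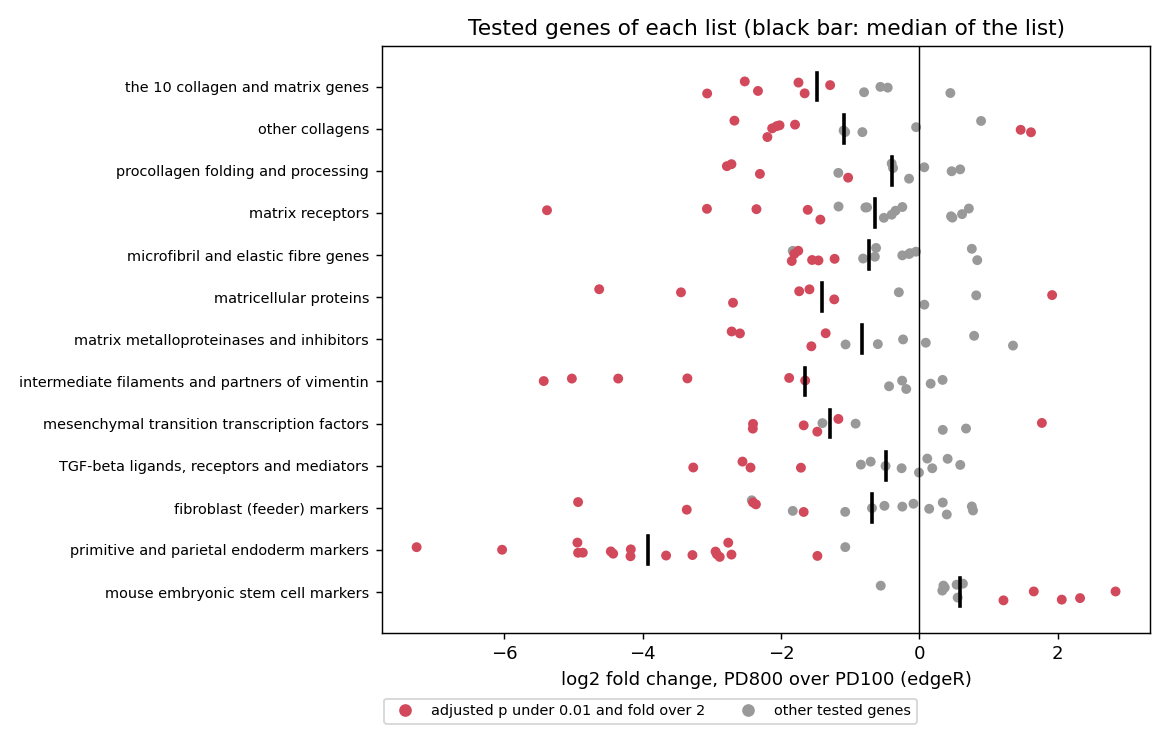
PD800 against PD100, as edgeR's log2 fold change, for each tested gene of the 10-gene set, of 9 pathway lists and of 3 lists of cell type markers, with red points past both thresholds and a black bar at the median of each list. The medians of the 9 pathway lists lie between -0.40 and -1.65, that of the endoderm markers at -3.91 and that of the stem cell markers at 0.59.

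Of 13 other collagen genes tested, 6 were called lower and 2 higher, with a median log2 fold change of -1.09. The list is of fibrillar and fibril-associated chains but also holds *Col6a1*, *Col6a2* and *Col6a3*, chains of the beaded microfilaments of type VI collagen, of which *Col6a1* and *Col6a2* are among the 6. *Col27a1*, a fibrillar collagen of cartilage, fell from 10.4 ± 0.174 to 3.01 ± 0.238 CPM (3.47-fold, adjusted p = 0.000203). *Col11a1*, a chain of type XI collagen that is a close relative of *Col5a1*, rose from 4.62 ± 0.676 to 12.7 ± 1.07 CPM (2.76-fold, adjusted p = 0.000591). *Col9a2*, a chain of the fibril-associated type IX collagen of cartilage, rose from 4.36 ± 1.26 to 13.3 ± 0.822 CPM (3.06-fold, adjusted p = 0.00136). Calls among the collagens were thus made in both directions.

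Of 11 genes for folding and processing of procollagen, 4 were called lower and 0 higher (median -0.40). *Serpinh1*, the collagen chaperone HSP47, fell 4.94-fold from 235 ± 7.41 to 47.7 ± 0.588 CPM (adjusted p = 3.86e-05). *Sparc*, a secreted collagen-binding protein, fell 6.56-fold from 568 ± 5.24 to 86.6 ± 1.85 CPM (adjusted p = 3.17e-05). *Pcolce*, which enhances the cutting of the procollagen C-propeptide, had 55.2 ± 0.998 and 83.2 ± 1.15 CPM, a log2 fold change of 0.59 that passed the adjusted p (0.00133) but not the fold threshold. Among 16 matrix receptor genes, 5 were called lower and 0 higher (median -0.63). *Itgb1*, the integrin beta chain shared by the collagen receptors and a main fibronectin receptor, fell 5.11-fold from 356 ± 25.4 to 69.7 ± 3.29 CPM (adjusted p = 4.88e-05). *Itgav* (log2 fold change -0.34, adjusted p = 0.0108) and *Itgb5* (-0.75, adjusted p = 0.00257), chains of vitronectin receptors, were not called.

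Of 16 microfibril and elastic fibre genes, the company of *Fbn1*, 6 were called lower and 0 higher (median -0.73). *Efemp2*, or fibulin-4, which is needed for elastic fibre assembly, fell 3.50-fold from 13.2 ± 0.838 to 3.78 ± 0.0707 CPM (adjusted p = 0.000138). *Ltbp4*, which binds latent TGF-beta, had 48.1 ± 5.89 and 43.8 ± 0.641 CPM and did not pass (adjusted p = 0.335). *Fbln1*, or fibulin-1, had 11.3 ± 1.33 and 20.2 ± 0.0612 CPM, a log2 fold change of 0.84 that did not pass the fold threshold (adjusted p = 0.00167). Of 10 matricellular genes, the class of *Postn*, 6 were called lower and 1 higher (median -1.41). *Cyr61* fell 24.7-fold from 90.9 ± 3.71 to 3.67 ± 0.395 CPM (adjusted p = 3.03e-05) and *Ctgf*, of the same CCN family of secreted proteins, 10.9-fold from 106 ± 10.9 to 9.77 ± 1.23 CPM (adjusted p = 4.88e-05). *Spp1*, which codes for osteopontin, was the gene called higher, from 116 ± 8.39 to 438 ± 0.840 CPM (3.79-fold, adjusted p = 6.62e-05).

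Of 10 matrix metalloproteinase and inhibitor genes, 4 were called lower and 0 higher (median -0.83). *Timp2*, an inhibitor of metalloproteinases, fell 6.03-fold from 28.2 ± 0.156 to 4.68 ± 0.121 CPM (adjusted p = 4.05e-05), while *Mmp14*, a membrane-bound collagenase (log2 fold change -0.60, adjusted p = 0.00161), and *Timp1* (-0.23, adjusted p = 0.0499) were not called. Of 11 intermediate filament genes and partners of vimentin, 6 were called lower and 0 higher (median -1.65). The epithelial keratin pair *Krt8* and *Krt18* fell 20.4-fold and 32.5-fold, from 400 ± 18.3 to 19.6 ± 0.674 CPM and from 317 ± 30.6 to 9.76 ± 0.545 CPM (adjusted p = 3.03e-05 for both). *Lmnb1*, a nuclear lamin, did not pass (log2 fold change 0.17, adjusted p = 0.237).

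Of 10 transcription factors of mesenchymal transition, 5 were called lower and 1 higher (median -1.28). *Zeb1*, a repressor of epithelial genes, rose 3.42-fold from 5.60 ± 0.657 to 19.2 ± 0.305 CPM (adjusted p = 0.000147). *Prrx2*, a mesenchymal homeobox factor, fell 2.78-fold from 2.96 ± 0.474 to 1.06 ± 0.167 CPM (adjusted p = 0.00398), and *Tcf4*, an E protein, had a log2 fold change of 0.68 that did not pass the fold threshold (adjusted p = 0.00244). Of 13 genes for TGF-beta ligands, receptors and mediators, a pathway known to raise the transcription of type I collagen and fibronectin, 4 were called lower and 0 higher (median -0.49). Its 3 most abundant genes, the mediators *Smad2* (log2 fold change 0.19, adjusted p = 0.135) and *Smad4* (0.00, adjusted p = 0.97) and the repressor *Skil* (-0.84, adjusted p = 0.000350), were not called.

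Lists of cell type markers were set beside these genes. The fibroblast list held 23 markers other than the 10 genes, 8 of them shared with the other lists. Of the 17 tested, 5 were called lower and 0 higher (median -0.68), where 8.81% and 6.28% of all tested genes were. Summed over the list, they had 185 and 203 CPM in PD100 and 45.2 and 43.1 CPM in PD800. The 3 markers of highest mean TPM, *Pdgfra*, *Tagln* and *Acta2*, made 157 and 176 CPM of this sum in PD100 and 18.5 and 19.5 CPM in PD800, and the other 20 markers 28.3 and 27.1 CPM in PD100 and 26.7 and 23.6 CPM in PD800, so that the fall of the sum was carried by these 3 genes. *Pdgfra*, a growth factor receptor of fibroblasts and of primitive endoderm, fell 30.5-fold from 31.9 ± 1.65 to 1.04 ± 0.105 CPM (adjusted p = 3.03e-05), and the contractile genes *Tagln* and *Acta2* fell 10.3-fold and 5.14-fold (edgeR, adjusted p = 4.47e-05 and 4.88e-05). The other called markers, named after their values were seen, were the mesenchymal transcription factors *Twist2* (5.29-fold lower, edgeR, adjusted p = 0.00237) and *Prrx1* (3.18-fold lower, adjusted p = 0.00202). Of the 12 tested markers that were not called, 7 had log2 fold changes below 0 and 5 above 0, from -2.42 for *Dcn* to 0.78 for *Tbx15*. The fibroblast markers *Lum*, *Dpt* and *Meox2*, also named after their values were seen, had at most 3 counts in every library. The part of fibroblast RNA in the fall of the collagens was not tested.

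Of 18 markers of primitive and parietal endoderm, 2 are also in other lists. Of the 18, 17 were called lower and 0 higher (median -3.91), where 8.81% and 6.28% of all tested genes were. The sum of these markers was 3928 and 4369 CPM in PD100 and 556 and 572 CPM in PD800. The 3 most abundant by TPM were *Sparc*, *Col4a1*, a basement membrane collagen chain that fell 21.5-fold from 1148 ± 143 to 53.5 ± 5.42 CPM (adjusted p = 3.82e-05), and *Lamc1*, a laminin chain that fell 2.77-fold from 641 ± 19.7 to 231 ± 3.38 CPM (adjusted p = 9.78e-05). Of 12 markers of mouse embryonic stem cells, 5 were called higher and 0 lower (median 0.59), where 6.28% and 8.81% of all tested genes were. The sum of these 12 was 2345 and 2643 CPM in PD100 and 4522 and 4609 CPM in PD800. The most abundant of them, *Dppa5a*, *Pou5f1* and *Zfp42*, had log2 fold changes of 0.54, 0.35 and 0.33 and were not called (adjusted p = 0.150, 0.0194 and 0.0312). The part of a changing share of endoderm-type cells in the values of the 10 genes was not tested.

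**Figure D5:**
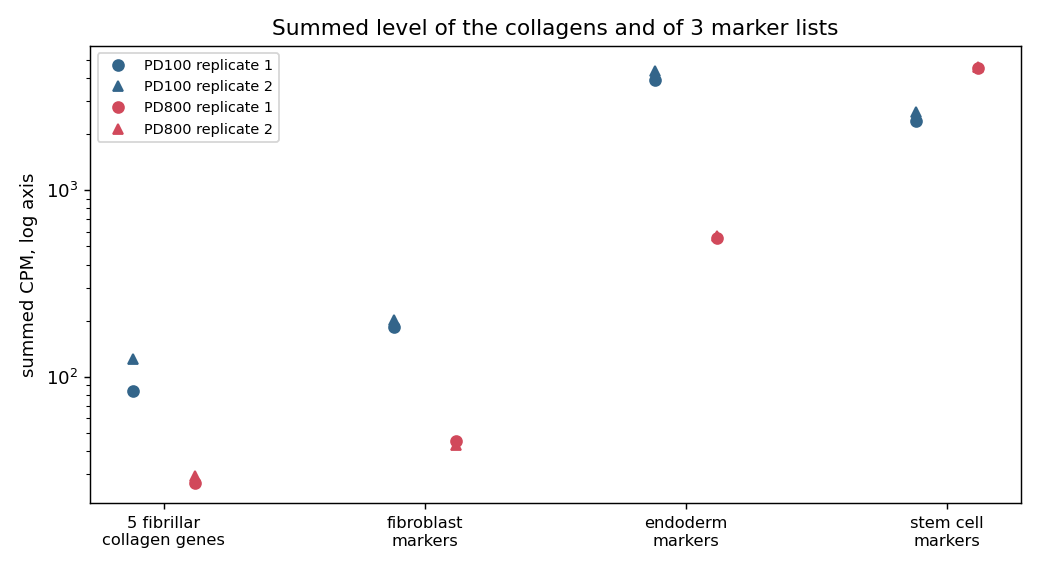
Summed CPM, on a log axis, of the 5 fibrillar collagen genes, of the fibroblast markers, of the endoderm markers and of the stem cell markers in each library (PD100 blue, PD800 red, replicate 1 circles, replicate 2 triangles). The collagens go from 84.1 and 124 to 27.0 and 29.3 CPM and the endoderm markers from 3928 and 4369 to 556 and 572 CPM, while the stem cell markers lie higher in PD800.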

How the data were processed

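Bulk RNA of DKO741 mESCs was measured in 2 libraries each at PD100 and PD800, grouped by the population doubling in their titles. Per the labels, the authors aligned reads to mm10 with STAR 2.5.3a, quantified genes with RSEM 1.3.0 and used DESeq2 1.18.1. The deposited expected counts are RSEM estimates not scaled for depth, where reads matching more than 1 gene are shared out among those genes. The deposited TPM values are scaled for an isoform-weighted length, estimated in each library, and to the same total. Library strand was not used here, so reads of an overlapping antisense gene cannot be told apart.

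After rounding of the expected counts to whole numbers, all genes were fitted at once by edgeR 4.0.16 (R 4.3.3), with TMM factors, filterByExpr (minimum count 10), the quasi-likelihood test and Benjamini-Hochberg adjustment. A call needed a fold change over 2 with an adjusted p under 0.01. The SE is the log2 fold change over the square root of F, and the 95% interval follows from it. Coordinates came from GENCODE M21, which held 53274 of the 53379 identifiers.

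The 10 genes and all lists were chosen with earlier results of these data known. Named genes are the 10 and the 3 of each list with the highest mean TPM. Alternatives were DESeq2 1.42.0, the replicate number as a block, upper-quartile normalisation, DESeq2 size factors, no expression filter, a minimum of 10 counts in each library, limma 3.58.1 on log2(TPM + 1) and log2(TPM + 0.1), edgeR's glmTreat against a fold of 2, and each library left out. The procedure was tested on simulated data. Proteins, isoforms and single cells were not analysed here.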

Additional observations from a re-analysis of the deposited data

How the results depend on the processing

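Of 130 values (10 genes under 13 alternatives), 125 kept their direction and their call, or lack of a call, by both thresholds together. A further 5 kept the direction but were no longer called, and 0 reversed. The adjusted p alone crossed 0.01 for some uncalled genes. That of *Fn1* went from 0.0185 in edgeR to 0.000768 in DESeq2's Wald test, and that of *Vim* from 0.00635 to 0.533 with limma on log2(TPM + 1). On log2(TPM + 1), limma gave log2 differences of -0.69 for *Col3a1* (adjusted p = 0.0114), -0.87 for *Col5a1* and -1.14 for *Thy1* (adjusted p = 0.0202), on log2(TPM + 0.1) -1.60 for *Thy1* (adjusted p = 0.0149), and glmTreat left *Col5a1* uncalled. On log2(TPM + 1), a pseudocount that lies above most of the collagen levels in PD800 and so shrinks the differences, 3 of the 10 genes, 23 list genes and 920 of all genes were called lower, and 2 list genes and 297 of all genes higher. On log2(TPM + 0.1), 2 list genes and 533 of all genes were called higher, and glmTreat called 29 list genes and 685 of all genes lower and 2 list genes and 386 of all genes higher. The higher share of all calls was 41.6% in edgeR, 24.4% on log2(TPM + 1) and 23.1% on log2(TPM + 0.1), scales on which all genes had medians of -0.12 and -0.21. With DESeq2, 6 of the 10 genes were called lower and 0 higher, where 1557 and 1070 of 19148 tested genes were.

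Leaving out each library in turn, 6 of the 10 genes were called lower every time, the list genes called lower numbered 33 to 47, and all genes called lower 1274 to 1893. These fits have 1 residual degree of freedom in the group that is left. Same-numbered libraries deviated together with a correlation of 0.265, but with 2 pairs they share only a number. With a replicate block in the model, the same 6 of the 10 genes were called lower, and over all genes 1956 were called lower and 1461 higher, against 1686 and 1202 without it. Precision is limited with 2 libraries a group, and *Col3a1* had 27 and 30 counts in PD800, the fewest of the 10 genes.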
